A study of Mus musculus with 2 samples.

Results

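The genes described here are 34 mouse genes whose products carry out mitosis, from the kinase that starts it to the proteins that part the daughter cells. They were taken by symbol from a list set by function and not by any measured value, and all 34 were found in both libraries among 31053 genes. The cells came from MC38 tumours, grown under the skin of mice from a colon carcinoma line of the same species, and their transcripts were counted cell by cell in droplets, from the 3' end of each. One library was made from tumours of the UBD overexpression group, in which ubiquitin D, a small ubiquitin-like protein, was overexpressed, and the other from tumours of the control group. The labels call both tissues subcutaneous xenografts, and the strain, sex and age of the mice, the vector and its promoter, and the number of tumours pooled are details not given in the sources used here. Each group therefore has 1 library, no test was possible and no difference between the libraries has a replicate check. All intervals are 95% intervals and cover counting error only.

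Cells that prepare to divide switch on most of these genes together, late in the cell cycle. In mammals the switch is a protein complex of the DREAM and MuvB family with the factors B-Myb and FoxM1, and many of the promoters carry a CCAAT box, bound by the factor NF-Y, and a cell cycle homology region whose core reads TTTGAA. Cdk1 with its cyclins then drives entry into mitosis, the spindle checkpoint delays separation of the chromosomes until each is attached, and the anaphase-promoting complex ends mitosis by marking cyclins and other proteins for destruction.

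Promoters are printed for 5 of the 34 genes to show what letters they share. They are Ube2c, Top2a and Birc5, which were among the genes with the most transcripts, Cdk1, and Cdc20, the gene that stood apart in tumour cells. All but Cdc20 were among the 29 genes higher in UBD macrophages, as described further on. Whether the letters bear on that difference was not tested. Each sequence is the 150 bases before the transcription start in RefSeq on GRCm38.p6, on the gene's own strand. Capitals mark CCAAT and TTTGAA on either strand, so that ATTGG and TTCAAA are the same motifs read from the other strand.
Ube2c: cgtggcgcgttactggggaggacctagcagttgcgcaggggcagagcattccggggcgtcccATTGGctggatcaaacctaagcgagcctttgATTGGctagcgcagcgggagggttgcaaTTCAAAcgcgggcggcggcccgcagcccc
Top2a: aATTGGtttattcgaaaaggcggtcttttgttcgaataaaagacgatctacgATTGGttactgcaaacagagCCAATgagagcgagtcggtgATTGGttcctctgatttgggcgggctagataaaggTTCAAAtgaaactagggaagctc
Cdk1: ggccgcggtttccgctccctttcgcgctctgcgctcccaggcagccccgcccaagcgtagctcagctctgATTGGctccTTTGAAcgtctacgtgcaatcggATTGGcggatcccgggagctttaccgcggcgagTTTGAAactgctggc
Cdc20: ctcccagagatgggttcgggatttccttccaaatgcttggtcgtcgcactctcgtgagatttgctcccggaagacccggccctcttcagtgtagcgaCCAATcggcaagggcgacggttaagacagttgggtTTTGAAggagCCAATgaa
Birc5: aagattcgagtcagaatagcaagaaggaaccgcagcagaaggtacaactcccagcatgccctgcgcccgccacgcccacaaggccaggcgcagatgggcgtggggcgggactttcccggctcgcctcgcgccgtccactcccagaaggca
These stretches lie at chr2:164769779-164769928 on the plus strand (Ube2c), chr11:99024190-99024339 on the minus strand (Top2a), chr10:69352913-69353062 on the minus strand (Cdk1), chr4:118437344-118437493 on the minus strand (Cdc20) and chr11:117849087-117849236 on the plus strand (Birc5). The Top2a stretch held 4 CCAAT letters and 1 TTTGAA, which begins 23 bases before the start. In Ube2c the TTTGAA begins 29 bases before the start and in Cdc20 18 bases before it, each with 2 CCAAT. Cdk1 had 2 of each. Birc5 had neither motif in these letters.

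RefSeq promoters were matched for 30 of the 34 genes, all but Ccna2, Aurkb, Tpx2 and Kif20a, in 32 windows of 250 bases before a start. CCAAT stood on either strand in 25 of the 32 windows, or 78.1%, against 33.85% of the 32851 windows of all genes. TTTGAA stood in 12 windows, or 37.5%, against 16.0% of all windows. Both stood in 11 windows, or 34.4%, against 5.55% of all windows. A match of letters describes the window and is not a measured binding site.

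All 34 genes are protein-coding in GENCODE vM21 on GRCm38 and lie on 15 chromosomes. Exons of 10 of them overlap those of another gene: 9 on the opposite strand (among them Ube2c with Tnnc2, Cdc20 with Elovl1 and Nusap1 with Oip5), and Top2a with Gm23451 on its own strand. Whether the counting used strand is a point not given in the sources used here, so the levels of the 9 genes are uncertain to that extent. The Top2a overlap lies on its own strand, so its level is uncertain whether or not strand was used.

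The UBD library held 14158 barcodes and 204267192 UMIs (unique molecular identifiers, each standing for 1 captured transcript), and the control library 14890 barcodes and 173973178 UMIs. After filtering and removal of predicted doublets 13057 UBD cells and 13823 control cells remained, with medians of 12186 and 4334 UMIs. The 2 libraries shared 71 barcodes, 60 of them among the cells kept. Ubd itself was at 1.21 CPM in UBD tumour cells and 0.363 CPM in control tumour cells, where CPM is UMIs per 1000000 UMIs of the summed cells. CPM counts transcript 3' ends and is not divided by gene length. A transgene without the mouse 3' end would not be counted, so this level checks the labels only in part. The series text speaks of goblet cells, and the sum of 5 goblet cell genes was 0.0524 CPM in UBD tumour cells and 0.201 CPM in control tumour cells.

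Cells were placed in classes by raw UMIs of 1 or 2 marker genes, none of them a mitosis gene. Tumour cells were set by Cdkn2a, a tumour suppressor locus that MC38 cells transcribe strongly, and numbered 7665 in the UBD library and 5331 in the control library. Macrophages, set by the complement gene C1qa, numbered 1645 in the UBD library and 2164 in the control library. T cells, set by Cd3e of the T cell receptor complex, numbered 384 in the UBD library and 360 in the control library. The rarer classes were NK cells set by Ncr1, with 18 UBD and 189 control cells, dendritic cells set by Flt3, with 46 UBD and 92 control cells, and osteoclast-like cells set by Acp5 with Ctsk, with 920 UBD and 204 control cells. Cells of no class made up 1785 UBD and 5067 control cells, and cells that met several rules, 592 UBD and 371 control cells, were left out.

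Genes outside the rule were checked in each class. Transcripts of the Y-linked genes Ddx3y, Eif2s3y, Kdm5d and Uty, which only male cells carry, summed to 0.472 CPM in UBD tumour cells and 2.11 CPM in control tumour cells, against 95.1 CPM in UBD and 105 CPM in control macrophages. Ptprc, the pan-leukocyte surface gene, was at 1.57 and 7.36 CPM in UBD and control tumour cells. Epcam, an epithelial surface gene, was near 0 in both, at 0.0459 and 0.0309 CPM. The epithelial keratin genes were present and differed between the libraries. Krt18 was at 77.1 CPM in UBD and 11.5 CPM in control tumour cells, and Krt8 at 40.3 and 10.5 CPM. Apoe, a macrophage lipoprotein gene, was at 9454 CPM in UBD and 9681 CPM in control macrophages. Other macrophage genes checked differed more. Adgre1 (125 against 228 CPM) and Cd68 (541 against 658 CPM) were lower in UBD macrophages, and Csf1r (272 against 221 CPM) was higher there. Macrophages may thus differ in makeup between the libraries too, and whether this bears on their mitosis gene differences was not tested. Cd3d, a second T cell receptor gene, was at 1408 CPM in UBD and 1272 CPM in control T cells. Gzma, a killer cell protease, was at 2307 CPM in UBD and 5964 CPM in control NK cells. The 18 UBD NK cells also held T cell genes, with Cd3d at 310 CPM and Cd3g at 379 CPM, against 47.7 and 82.2 CPM in control NK cells, so this class was less cleanly set in the UBD library. Ccr7, a homing receptor of mature dendritic cells, was at 637 CPM in UBD and 1001 CPM in control dendritic cells. Other genes checked in this class did not all run that way. Higher in the UBD class were Xcr1 (136 against 33.5 CPM), Clec9a (101 against 42.5 CPM) and Fscn1 (596 against 545 CPM). Lower there were Cd209a (30.3 against 40.2 CPM) and, slightly, H2-Ab1 (4600 against 4846 CPM). The class may thus differ in makeup between the libraries, and whether this bears on its mitosis gene differences was not tested. Mmp9, a protease of bone-resorbing cells, was at 4657 CPM in UBD and 3047 CPM in control osteoclast-like cells.

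Mitosis genes were read most often in tumour cells, and the libraries differed in opposite directions in tumour cells and macrophages. A cell was called mitotic where its 34 genes summed to at least 5 UMIs after every cell had been thinned at random to 2000 UMIs, so that cells were compared at 1 depth. The call marks a range of a continuous count and not a separate kind of cell. Some of the cells called also passed a call from DNA replication genes, as given further on. Among tumour cells 27.2% were called mitotic in the UBD library (26.2 to 28.2%, 2070 of 7621 cells) and 30.6% in the control library (29.3 to 31.9%, 1565 of 5113 cells). The UBD share was lower by 3.45 percentage points, with an interval of the difference from -5.06 to -1.84. This tumour difference depended on the setting: it was -0.34 points after thinning to 1000 UMIs (-1.51 to 0.82) and -8.49 points after thinning to 4000 UMIs (-10.3 to -6.66). Split by depth before thinning, it was -8.39 points (-11.0 to -5.69) in cells under 10000 UMIs, where 11.3% of UBD and 19.7% of control cells were mitotic. In cells of 10000 UMIs or more it was -5.14 points (-7.08 to -3.22), with 30.2% of UBD and 35.3% of control cells mitotic. Among macrophages 13.2% were called mitotic in the UBD library (11.5 to 15.0%, 199 of 1510 cells) and 5.21% in the control library (4.24 to 6.32%, 96 of 1844 cells). The UBD share of macrophages was higher by 7.97 points, with an interval from 6.01 to 10.0.

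The other classes held fewer cells and wider intervals. Mitotic T cells were 17.0% in the UBD library (45 of 265 cells) and 14.2% in the control library (42 of 295 cells), and the difference of 2.74 points had an interval from -3.27 to 8.85. Osteoclast-like cells were at 14.0% in the UBD library (126 of 902 cells) and 13.8% in the control library (22 of 159 cells), a difference of 0.132 points with an interval from -6.44 to 5.26. In neither class was a difference between the libraries detectable at this number of cells. NK cells gave 2 mitotic of 12 UBD cells, too few to compare, and 26 of 175 control cells (14.9%, 9.94 to 21.0%). Dendritic cells gave 5 mitotic of 44 UBD cells (11.4%) and 0 of 88 control cells, which allows a share of up to 3.41%. The difference of 11.4 points in dendritic cells had an interval from 3.71 to 24.0 and rests on 5 cells.

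**Figure D1:**
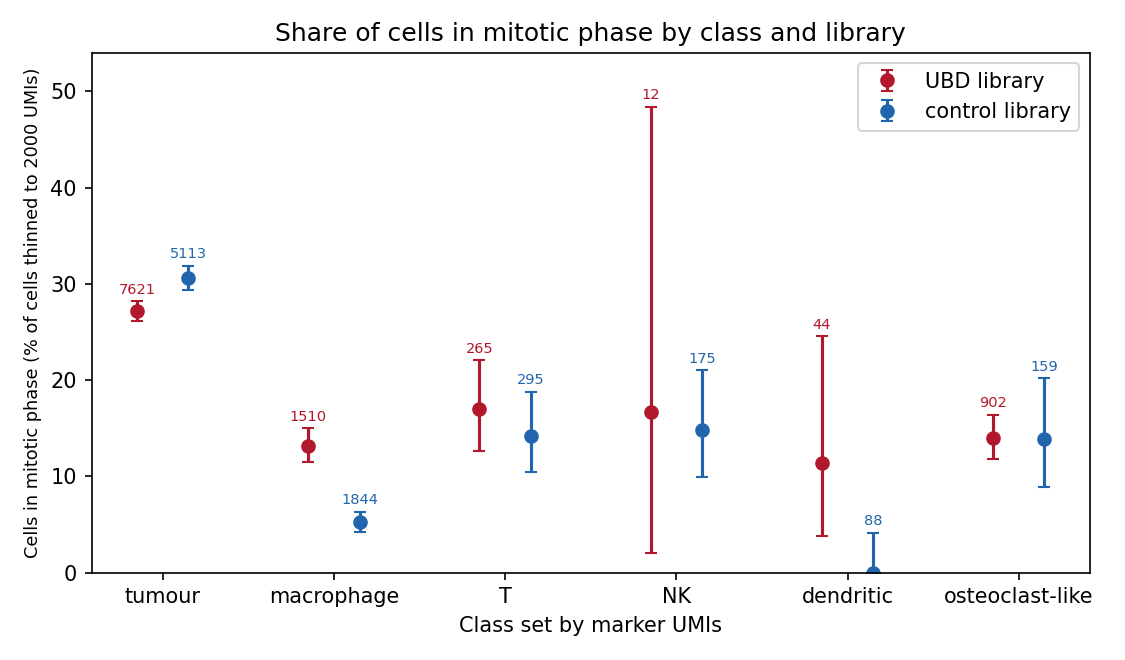
Percent of cells called mitotic (at least 5 summed UMIs of the 34 genes after thinning to 2000 UMIs) in each class, UBD library left and control library right of each pair, with exact binomial 95% intervals and the number of thinned cells above each point. Tumour cells sat highest in both libraries among the classes with over 100 cells, and the UBD and control intervals of macrophages, 11.5 to 15.0% and 4.24 to 6.32%, did not overlap.

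Before thinning, 64.7% of UBD and 71.6% of control tumour cells and 24.3% of UBD and 9.89% of control macrophages held at least 5 UMIs of the genes. Median depth differed between the libraries in these classes: 17318 UMIs in UBD and 19712 in control tumour cells, and 5630 in UBD and 4043.5 in control macrophages. As a background, cells with at least 2 UMIs each of Ccr7 and Fscn1, genes of mature dendritic cells that have stopped dividing, were chosen after the data had been seen. Drawn from the dendritic class and from cells of no class, these cells can also be among the dendritic cells described above. They gave 1 mitotic of 41 UBD cells (2.44%, 0.0617 to 12.9%) and 0 of 67 control cells, which allows up to 4.48%, at median depths of 3289 and 4000 UMIs. The interval of UBD macrophages, from 11.5%, overlapped the upper end of the UBD background interval. The interval of control macrophages reached down to 4.24%, under the 4.48% allowed in the control background. No interval was calculated for the difference between macrophages and that background. Overlap of separate intervals does not decide whether 2 shares differ, so no conclusion is drawn for either library. Neutrophils were too shallow for the same reading: 0 of 40 control neutrophils reached 5 UMIs at a depth of 1000, which allows up to 7.5%.

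Transcripts released by broken tumour cells can also reach droplets of other cells, and Cdkn2a gave an estimate of that. Host cells with at least 3 UMIs and 200 CPM of Cdkn2a had been left out as meeting several rules. The estimate therefore covers the cells kept and is not an upper limit on tumour RNA. Cdkn2a was at 67.8 CPM in UBD and 75.4 CPM in control macrophages, against 1800 CPM in UBD and 1869 CPM in control tumour cells. If all Cdkn2a in macrophages were tumour RNA, the tumour ratio of mitosis genes to Cdkn2a would bring 81.0 CPM of mitosis genes to UBD and 97.5 CPM to control macrophages. These amounts are 5.68% and 13.0% of the mitosis gene level measured in UBD and control macrophages. The same estimate was 4.65% in UBD and 5.65% in control osteoclast-like cells, and 6.92% in UBD and 5.29% in control T cells. In the classes of few cells it was 6.51% in UBD and 17.4% in control dendritic cells and 13.7% in UBD and 4.05% in control NK cells.

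Lower and upper cuts showed where the libraries parted. At least 10 UMIs were found in 10.5% of UBD and 10.8% of control tumour cells, a difference of -0.25 points (-1.35 to 0.84) that was not detectable at this number of cells. No mitosis gene UMI was found in 33.4% of UBD and 24.7% of control tumour cells. The curves of the libraries thus parted among cells with few UMIs. There were 835 UBD and 798 control tumour cells just under the cut at 3 or 4 UMIs, and 591 UBD and 536 control tumour cells just over it at 5 or 6. In macrophages at least 10 UMIs were found in 7.02% of UBD and 1.90% of control cells. Just under the cut lay 93 macrophages in each library, and just over it 41 UBD and 32 control macrophages.

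**Figure D2:**
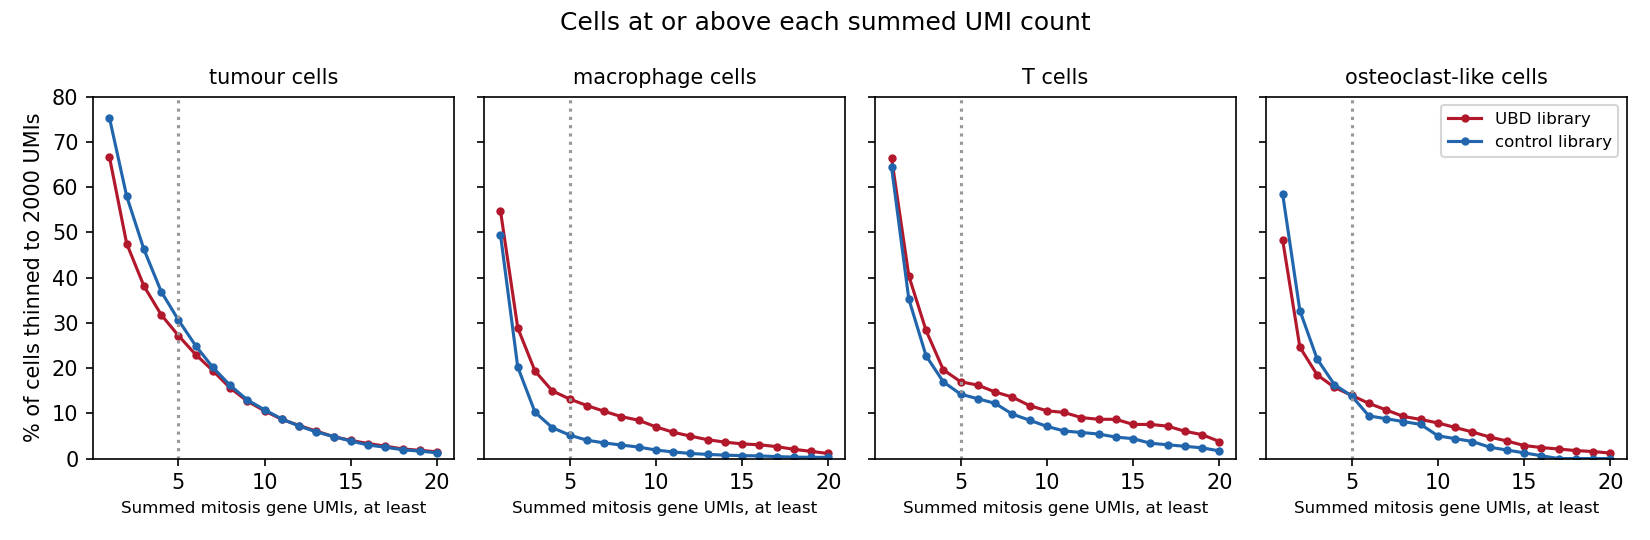
Percent of thinned cells (vertical axis) with at least the number of summed mitosis gene UMIs on the horizontal axis, in 4 classes, for the UBD library (red) and the control library (blue), with the cut of 5 UMIs dotted. In tumour cells the curves parted below the cut and met near 10 UMIs (10.5% UBD, 10.8% control), while in macrophages they stayed apart (7.02% UBD, 1.90% control).

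Within each library the host classes with at least 100 thinned cells were below the tumour cells. Macrophages were lower than tumour cells by 14.0 points in the UBD library (an interval of the difference from -15.9 to -11.9) and by 25.4 points in the control library (-27.0 to -23.7). T cells and osteoclast-like cells did not differ detectably from macrophages in the UBD library, with differences of 3.80 (-0.622 to 9.04) and 0.790 points (-1.98 to 3.69). In the control library T cells were higher than macrophages by 9.03 points (5.33 to 13.6) and osteoclast-like cells higher by 8.63 points (3.98 to 14.9). Among osteoclast-like cells with a C1qa UMI, 20.9% were mitotic in the UBD library (29 of 139) and 6.52% in the control library (3 of 46), a difference of 14.3 points (1.86 to 23.0). Among those without, 12.7% were in the UBD library and 16.8% in the control library, a difference of -4.10 points (-12.4 to 2.21). Osteoclast-like cells that also carried the macrophage marker thus ran the same way as macrophages, and the rest did not differ detectably.

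The summed level of the 34 genes had the direction of the share in tumour cells, macrophages, T cells and dendritic cells, and the opposite sign in osteoclast-like and NK cells. It was 2151 CPM in UBD and 2416 CPM in control tumour cells, 1.12-fold lower in UBD (1.12 to 1.13). In macrophages it was 1426 CPM in UBD and 749 CPM in control cells, 1.90-fold higher in UBD (1.85 to 1.96). Osteoclast-like cells had 1150 CPM in UBD and 1409 CPM in control, 1.22-fold lower in UBD (1.18 to 1.27), where the share of mitotic cells was 0.132 points higher in UBD, within its counting error. T cells had 1942 CPM in UBD and 1865 CPM in control, a ratio of 1.04 (0.987 to 1.10). Dendritic cells had 1299 CPM in UBD and 398 CPM in control, 3.27-fold higher in UBD (2.69 to 3.98), and NK cells 1498 and 1610 CPM in UBD and control, a ratio of 0.930 (0.741 to 1.15).

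Genes were counted as higher or lower in the UBD library where the ratio of CPM reached 1.5-fold, its interval left out 1 and the 2 libraries together held at least 20 UMIs. In tumour cells all 34 genes passed the UMI minimum, 0 were higher and 1, Cdc20, was lower, where 7.93% of the 15322 genes tested were higher and 19.8% lower. The median log2 ratio of the 34 was -0.20, against -0.06 over all genes tested, and 27 of the 34 ratios were below 1. In macrophages all 34 passed the minimum, 29 were higher and 0 lower, where 8.92% of 11283 genes tested were higher and 18.4% lower. Their median log2 ratio was 0.95, against -0.09 over all genes, and all 34 ratios were above 1. The 5 genes that did not reach the rule in macrophages were Aurka, Cdc20, Bub3, Cenpa and Kif20a.

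The macrophage difference was smaller within subsets of cells, chosen after the data had been seen. Ly6c2, a surface gene of recently arrived monocytes, gave at least 1 UMI in 2.12% of UBD and 39.9% of control macrophages after thinning. Of control macrophages with it 1.497% were mitotic (11 of 735), and of UBD macrophages with it 2 of 32. Without these cells the share was 13.3% in UBD and 7.66% in control macrophages, a difference of 5.66 points (3.29 to 7.98), and the summed level was 1439 CPM in UBD and 903 CPM in control, a log2 ratio of 0.67 in place of 0.93. In that subset 17 of the 34 genes were higher, where 6.78% of genes were. Gm42418, a transcript that overlaps ribosomal RNA, was at 2873 CPM in UBD and 11006 CPM in control macrophages. Without cells in which it took 1% or more of UMIs, the share was 13.4% in UBD and 8.17% in control macrophages, a difference of 5.24 points (2.66 to 7.70), and 17 genes were higher, where 7.92% of genes were. How far either gene's cells account for the difference was not tested, and no member was lower in either subset.

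Splitting macrophages by antigen presentation genes left the UBD share higher on both sides. With at least 3 UMIs of the MHC class II genes H2-Aa, H2-Ab1 and H2-Eb1, 10.5% of UBD and 4.64% of control macrophages were mitotic, a difference of 5.88 points (3.26 to 8.46). With fewer, 16.9% of UBD and 5.55% of control macrophages were, a difference of 11.3 points (8.22 to 14.6). In tumour cells the interferon-induced genes Ifit1 or Isg15 gave a UMI in 6.23% of UBD and 41.9% of control cells, and the UBD share was lower in cells with and without such a UMI. It was 21.5% in UBD and 30.2% in control cells with one, and 27.5% in UBD and 30.9% in control cells without. Gm42418 was at 1009 CPM in UBD and 2879 CPM in control tumour cells, and without cells at 1% or more of it the tumour difference was -6.82 points (-8.63 to -5.03).

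The gene-by-gene values follow by role, beginning with Cdk1 and its cyclins. Cdk1, the kinase that drives entry into mitosis, was at 92.7 CPM in UBD and 114 CPM in control tumour cells, and at 52.1 CPM in UBD and 28.5 CPM in control macrophages. Ccnb1, encoding cyclin B1, which activates it, was at 43.3 and 49.98 CPM in UBD and control tumour cells and at 23.2 and 12.6 CPM in UBD and control macrophages. Ccnb2, for cyclin B2, was at 40.0 CPM in UBD and 53.0 CPM in control tumour cells, and at 31.8 CPM in UBD and 14.8 CPM in control macrophages. All 3 were lower in UBD tumour cells and higher in UBD macrophages. The same held for Ccna2, for cyclin A2, which acts earlier, at 37.0 and 41.5 CPM in UBD and control tumour cells and 27.9 and 15.6 CPM in UBD and control macrophages. Ratios of these 4 genes in macrophages ran from 1.79 (1.46 to 2.19) for Ccna2 to 2.15 (1.76 to 2.63) for Ccnb2.

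Plk1, the polo-like kinase that acts on centrosomes and kinetochores, was at 24.0 CPM in UBD and 32.2 CPM in control tumour cells, and at 13.7 CPM in UBD and 8.96 CPM in control macrophages. Aurka, the Aurora kinase of the spindle poles, was at 31.3 and 37.2 CPM in UBD and control tumour cells and at 12.5 and 8.66 CPM in UBD and control macrophages. Plk1 just reached the rule in macrophages at 1.52-fold (1.16 to 2.01), and Aurka at 1.45-fold (1.09 to 1.93) did not. The chromosomal passenger complex, which corrects faulty attachments, was led by Birc5, or survivin, at 137 CPM in UBD and 168 CPM in control tumour cells, and at 132 CPM in UBD and 58.2 CPM in control macrophages. As a share of UMIs, Birc5 was thus nearly as high in UBD macrophages as in UBD tumour cells, which held more UMIs per cell. Aurkb, the kinase of the complex, was at 27.2 and 35.1 CPM in UBD and control tumour cells and at 21.3 and 10.4 CPM in UBD and control macrophages. Cdca8, or borealin, was at 90.7 and 116 CPM in UBD and control tumour cells and at 67.4 and 32.5 CPM in UBD and control macrophages. The 3 genes of the complex were higher in UBD macrophages by 2.05 to 2.28-fold.

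Genes of protein destruction at the end of mitosis held both the gene with the most UMIs in tumour cells and the one that fell furthest there. Ube2c, the ubiquitin-conjugating enzyme of the anaphase-promoting complex, was at 264 CPM in UBD and 317 CPM in control tumour cells, and at 113 CPM in UBD and 55.4 CPM in control macrophages. Cdc20, the activator of that complex, was at 49.4 CPM in UBD tumour cells, from 7531 UMIs, and at 85.5 CPM in control tumour cells, from 11078 UMIs. It was 1.73-fold lower in the UBD library (1.68 to 1.78), the only one of the 34 past the rule in tumour cells. In macrophages Cdc20 was at 15.4 CPM in UBD and 11.5 CPM in control cells, a ratio of 1.34 (1.04 to 1.72). Cdca3, tied in frog eggs to destruction of the kinase Wee1, was at 53.2 and 69.4 CPM in UBD and control tumour cells and at 48.5 and 25.9 CPM in UBD and control macrophages. Exons of Cdc20 overlap those of Elovl1 on the other strand, as said above.

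Of the 4 spindle checkpoint genes, a pair was slightly higher in UBD tumour cells, where most of the 34 were lower. Bub1b, for the checkpoint protein BubR1, was at 39.6 CPM in UBD and 35.3 CPM in control tumour cells, a ratio of 1.12 (1.08 to 1.16), and at 29.1 CPM in UBD and 13.1 CPM in control macrophages, a ratio of 2.23 (1.80 to 2.76). Bub3, its partner, was at 116 and 104 CPM in UBD and control tumour cells and at 81.2 and 68.9 CPM in UBD and control macrophages, with a macrophage ratio of 1.18 (1.06 to 1.31). Both genes bind unattached kinetochores together. Bub1, a checkpoint kinase, was at 23.0 and 24.4 CPM in UBD and control tumour cells and at 14.1 and 6.44 CPM in UBD and control macrophages. Mad2l1, for the Mad2 protein that holds Cdc20 inactive, was at 21.0 and 23.8 CPM in UBD and control tumour cells and at 15.5 and 9.67 CPM in UBD and control macrophages. Of the 4, Bub3 alone missed the rule in macrophages.

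At the kinetochore, the attachment site on each chromosome, Cenpa, the histone that marks it, was at 147 CPM in UBD and 157 CPM in control tumour cells, and at 109 CPM in UBD and 89.2 CPM in control macrophages. Its macrophage ratio of 1.23 (1.12 to 1.34) was short of the rule. Cenpf, a large protein of the outer kinetochore, was at 90.8 and 102 CPM in UBD and control tumour cells, and in macrophages at 49.1 CPM in UBD and 17.8 CPM in control cells, 2.76-fold higher (2.31 to 3.29). Cenpe, a motor that carries chromosomes to the middle of the spindle, was at 63.4 and 68.3 CPM in UBD and control tumour cells and at 25.3 and 13.8 CPM in UBD and control macrophages. Ndc80 and Nuf2, partners in the complex that grips microtubules, differed in tumour cells. Ndc80 was at 18.2 CPM in UBD and 22.5 CPM in control tumour cells, while Nuf2 was at 17.7 CPM in UBD and 17.6 CPM in control tumour cells, a ratio of 1.00 (0.9495 to 1.062). In macrophages Ndc80 was at 12.3 CPM in UBD and 7.25 CPM in control cells, and Nuf2 at 8.87 CPM in UBD and 4.23 CPM in control cells.

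Top2a, the topoisomerase that disentangles chromosomes, was at 218 CPM in UBD and 197 CPM in control tumour cells, 1.11-fold higher in UBD (1.09 to 1.12). In macrophages it was at 151 CPM in UBD and 56.9 CPM in control cells, 2.65-fold higher (2.40 to 2.92), from 1477 and 565 UMIs. Mki67, for the Ki-67 protein that coats chromosomes, was at 46.2 and 60.4 CPM in UBD and control tumour cells, 1.31-fold lower in UBD (1.26 to 1.35), and at 80.9 and 33.6 CPM in UBD and control macrophages, 2.41-fold higher (2.11 to 2.74). Both are common markers of dividing cells, and in tumour cells they moved in opposite directions. Before thinning, at least 1 Mki67 UMI was found in 29.7% of UBD and 38.5% of control tumour cells, and in 17.9% of UBD and 6.70% of control macrophages. Median depth differed between the libraries in the same direction in both classes, so these shares do not compare cells at 1 depth.

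Among spindle genes Nusap1, for a protein that bundles microtubules, had the largest macrophage ratio of the 34, at 39.0 CPM in UBD and 10.1 CPM in control macrophages, 3.88-fold higher (3.102 to 4.880). In tumour cells it was at 40.8 CPM in UBD and 45.2 CPM in control cells. Its exons overlap those of Oip5 on the other strand. Hmmr, for a spindle protein that also binds hyaluronan, was at 57.8 and 55.8 CPM in UBD and control tumour cells and at 23.7 and 9.67 CPM in UBD and control macrophages. Tpx2, which activates Aurora A, was at 94.7 and 92.6 CPM in UBD and control tumour cells and at 48.3 and 31.6 CPM in UBD and control macrophages. Neither gene was lower in UBD tumour cells. Ckap2l, a microtubule-associated gene, was at 22.3 and 24.7 CPM in UBD and control tumour cells and at 19.9 and 9.97 CPM in UBD and control macrophages. Of the motors, Kif11, which pushes the poles apart, was at 22.2 and 24.3 CPM in UBD and control tumour cells and at 19.2 and 8.86 CPM in UBD and control macrophages. Kif2c, which takes microtubules apart at kinetochores, was at 15.2 and 19.6 CPM in UBD and control tumour cells and at 19.2 and 9.26 CPM in UBD and control macrophages. In the UBD library its share of UMIs was thus higher in macrophages than in tumour cells.

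The last group acts on the midzone between the separating chromosomes and in cytokinesis. Prc1, which crosslinks midzone microtubules, was at 80.9 CPM in UBD and 75.8 CPM in control tumour cells, and at 51.4 CPM in UBD and 21.9 CPM in control macrophages, 2.35-fold higher (2.001 to 2.769). Kif20a, a motor of the midzone, was at 20.2 and 24.8 CPM in UBD and control tumour cells and at 8.05 and 7.15 CPM in UBD and control macrophages, and its macrophage interval (0.807 to 1.57) was the only one of the 34 to include 1. Kif23 and Racgap1 form the centralspindlin complex of the midzone. Kif23 was at 25.0 and 31.9 CPM in UBD and control tumour cells and at 18.95 and 12.49 CPM in UBD and control macrophages. Racgap1 was at 48.7 and 50.1 CPM in UBD and control tumour cells and at 31.6 and 17.6 CPM in UBD and control macrophages. Anln, for the actin-binding protein anillin of the cleavage furrow, was at 32.6 and 39.9 CPM in UBD and control tumour cells and at 11.6 and 6.14 CPM in UBD and control macrophages. All but Prc1 were below 1 in tumour cells, Racgap1 with an interval that included 1 (0.940 to 1.00).

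**Figure D3:**
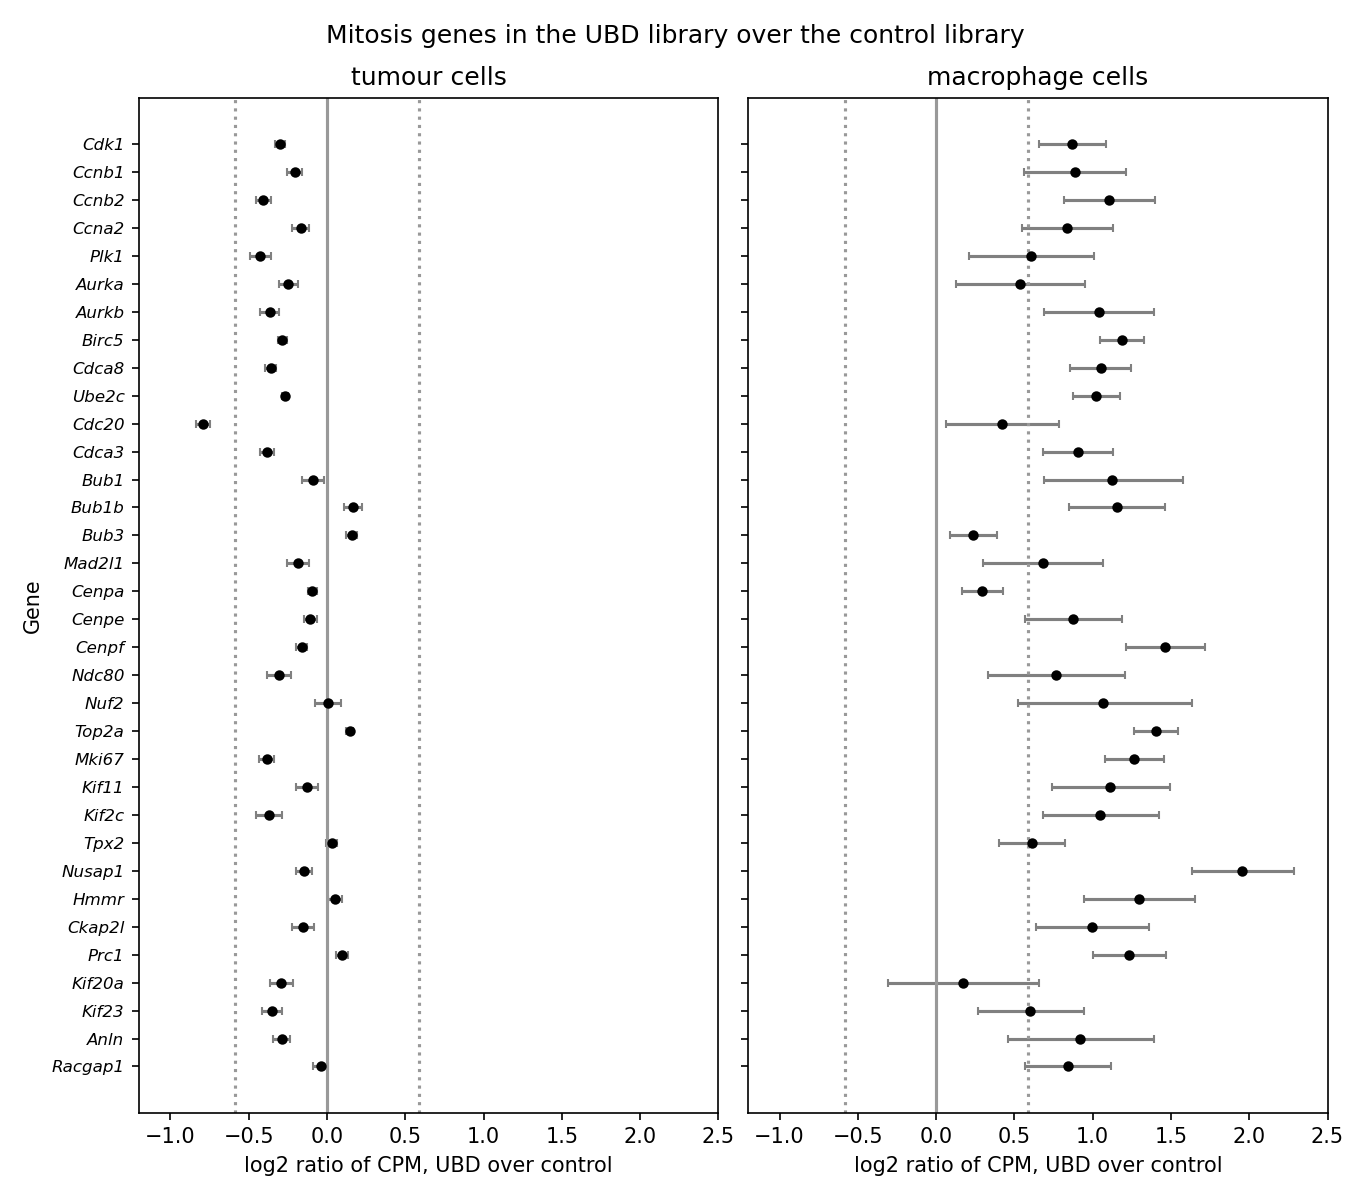
Log2 ratio of CPM, UBD over control library, for each of the 34 genes in tumour cells (left panel) and macrophages (right panel), with 95% counting intervals, a solid line at a ratio of 1 and dotted lines at 1.5-fold either way. In tumour cells Cdc20 alone lay beyond a dotted line, at -0.79, and in macrophages all points lay right of the solid line, up to 1.95 for Nusap1.

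Across genes the tumour ratios were narrow in range. Intervals were wholly above 1 for 5 genes and wholly below 1 for 26, and the log2 ratios ran from -0.79 to 0.16. Macrophage log2 ratios ran from 0.17 to 1.95, and 33 of 34 intervals were wholly above 1.

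In T cells all 34 genes passed the minimum of 20 UMIs over both libraries, 0 were higher and 1 was lower, where 5.58% of 8028 genes tested were higher and 6.7% lower. The lower gene was Ndc80, at 11.96 CPM in UBD and 24.0 CPM in control T cells, from 15 and 39 UMIs. The 3 genes with the most UMIs were Cenpa, Top2a and Ube2c in both libraries. Cenpa was at 231 CPM in UBD and 237 CPM in control T cells, and Top2a at 215 CPM in UBD and 207 CPM in control T cells. Ube2c was at 170 CPM in UBD and 178 CPM in control T cells. None of the 3 differed beyond counting error. Gm42418 was at 4963 CPM in UBD and 11339 CPM in control T cells. Without cells at 1% or more of it, the share of mitotic T cells was 18.2% in UBD and 28.8% in control cells, so the T cell difference turned direction. No interval is given for this smaller set of cells, and the difference over all T cells was itself within counting error.

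In osteoclast-like cells all 34 passed the minimum, 0 were higher and 6 lower, where 3.86% of 10756 genes tested were higher and 12.4% lower. The 6 were Cdk1, Plk1, Ube2c, Cenpe, Kif20a and Kif23. Kif23 was at 10.8 CPM in UBD and 21.7 CPM in control osteoclast-like cells, 2.02-fold lower (1.41 to 2.84), and Cenpe at 24.4 CPM in UBD and 45.7 CPM in control, 1.87-fold lower (1.48 to 2.36). Ube2c was at 111 CPM in UBD and 169 CPM in control osteoclast-like cells, 1.52-fold lower (1.35 to 1.71). Top2a was at 99.4 and 123 CPM in UBD and control, and Birc5 at 97.6 and 116 CPM. With all cells weighted equally the log2 ratio of the summed level was -0.04 in place of -0.29. NK and dendritic cells had at least 20 UMIs over both libraries for 23 and 5 of the 34 genes. The genes with the most UMIs in UBD NK cells were Top2a at 224 CPM, Birc5 at 155 CPM and Cdca8 at 138 CPM, from 13, 9 and 8 UMIs. In control NK cells they were Cenpa at 222 CPM, Top2a at 179 CPM and Ube2c at 157 CPM. In UBD dendritic cells they were Top2a at 157 CPM, Cenpa at 136 CPM and Birc5 at 116 CPM, and in control dendritic cells Cenpa at 127 CPM, Bub3 at 44.7 CPM and Top2a at 35.8 CPM. Cenpa and Bub3 thus led control dendritic cells, which held 0 mitotic cells.

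**Figure D4:**
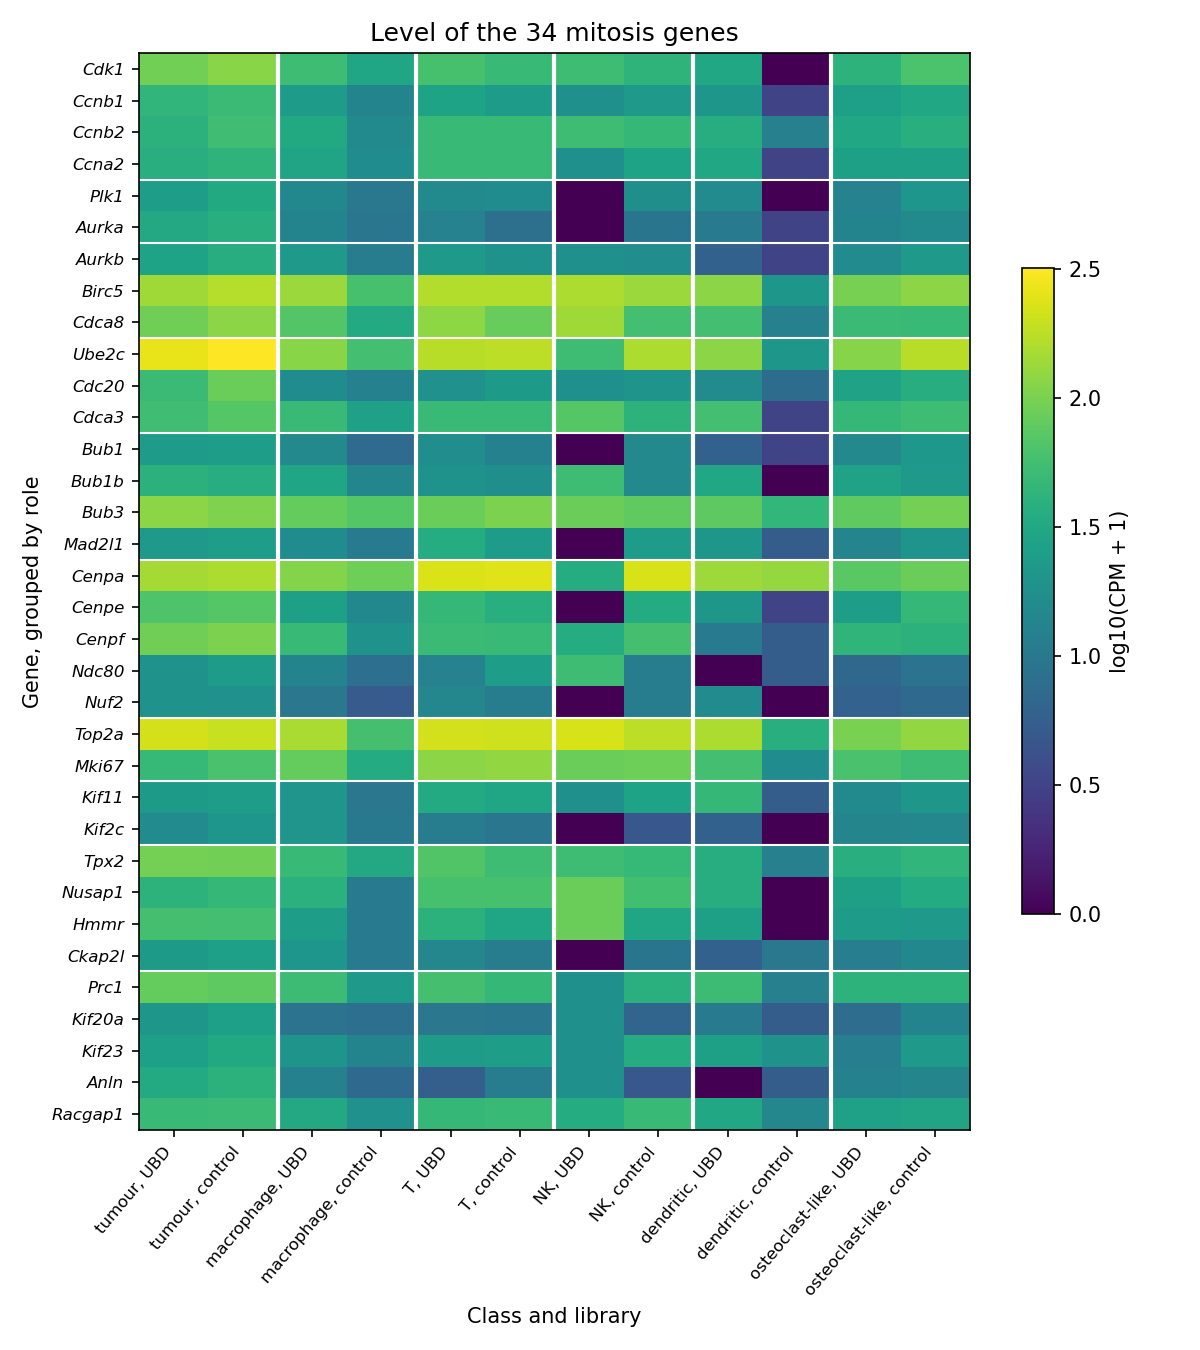
Level of each of the 34 genes as log10(CPM + 1), by role down the page and by class across it, with the UBD library left of the control library in each pair. Ube2c and Top2a were brightest in tumour cells (264 and 218 CPM in UBD cells), and macrophages and dendritic cells were brighter in the UBD library (summed levels of 1426 CPM in UBD and 749 CPM in control macrophages, and 1299 CPM in UBD and 398 CPM in control dendritic cells).

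Whether each gene marks the same cells as the rest was asked by calling cells mitotic from the other 33 genes and comparing the gene's level in those cells and in all others. In UBD tumour cells the median of the 34 ratios was 6.67, and in control tumour cells 4.46. In macrophages, over genes with at least 20 UMIs, it was 17.6 in UBD over 33 genes and 14.3 in control over 29 genes. Bub3 was the lowest gene in tumour cells and macrophages of both libraries, at 1.82 in UBD and 2.23 in control tumour cells and at 2.83 in UBD and 2.49 in control macrophages. Cenpa was next lowest in control macrophages, at 2.60, and Mad2l1 in tumour cells, at 3.25 in UBD and 2.60 in control. Bub3 was read in 16.1% of UBD and 11.8% of control tumour cells not called mitotic by the others, and Mad2l1 in 2.15% of UBD and 2.89% of control ones. Bub3 was thus common outside the mitotic cells, while Mad2l1 was rare there and only moderately more frequent within them. Nusap1 was the highest in tumour cells, at 15.7 in UBD (12.2 to 20.4) and 9.52 in control (7.19 to 12.8). Every gene with enough UMIs had a ratio above 1 in both classes and libraries. Without Bub3 and Cenpa the log2 ratio of the summed macrophage level was 1.06, in place of 0.93.

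**Figure D5:**
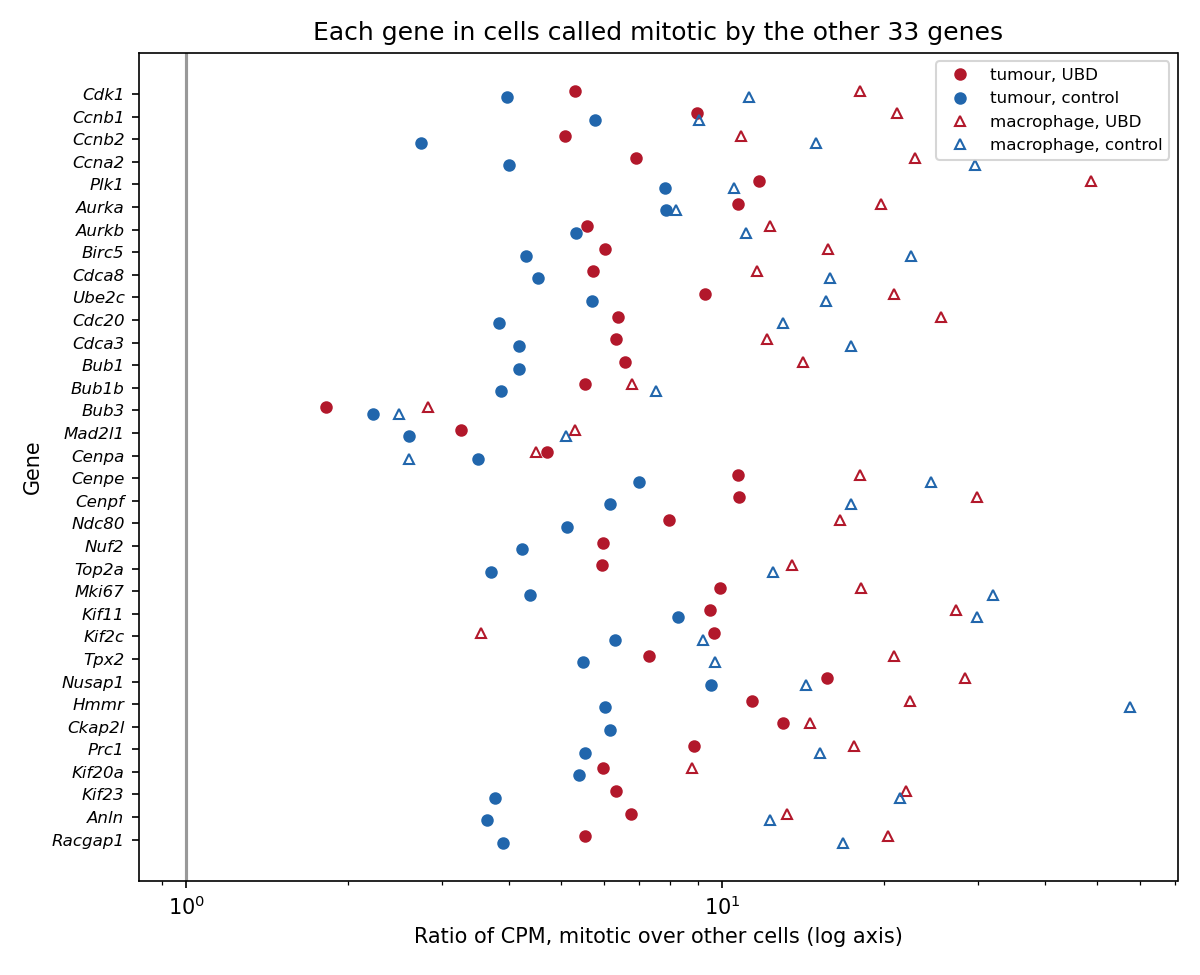
For each gene, the ratio of its CPM in cells called mitotic by the other 33 genes over its CPM in other cells, on a log axis, in tumour cells (filled circles) and macrophages (open triangles) of the UBD (red) and control (blue) libraries, for genes with at least 20 UMIs. Macrophage points lay mostly right of tumour points (medians 17.6 and 14.3 against 6.67 and 4.46), and Bub3 stood furthest left.

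Mitotic cells were also deeper before thinning. Mitotic tumour cells had a median of 23904.5 UMIs in the UBD library and 30587 in the control library, where the other tumour cells had 15477 in UBD and 17904 in control. Mitotic macrophages had 9115 UMIs in UBD and 9784.5 in control, where other macrophages had 5666 and 4381.5 in UBD and control. A mitotic cell thinned to 2000 UMIs held a median of 7 of the 34 genes in UBD and 6 in control tumour cells, and 8 in UBD and 7 in control macrophages. Cdkn2a and C1qa set the classes, and cells that met both rules had been left out, so the median of 0 CPM of Cdkn2a in mitotic macrophages of both libraries is a description of the class. The median share of mitochondrial UMIs in mitotic macrophages was 2.80% in UBD and 2.71% in control.

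The makeup of the mitosis gene UMIs within mitotic cells differed between classes in the same way in both libraries for a few genes. Mki67 made up 6.24% of them in UBD macrophages against 2.24% in UBD tumour cells, and 7.28% in control macrophages against 2.67% in control tumour cells. It was past 1.5-fold in T cells too, at 6.56% in UBD and 6.90% in control T cells. Cdc20 ran the other way, at 1.25% in UBD macrophages against 2.47% in UBD tumour cells, and at 1.43% in control macrophages against 3.46% in control tumour cells. T cells shared this, at 1.09% in UBD and 1.01% in control, from 7 and 5 UMIs. In macrophages of both libraries Kif11 was also past 1.5-fold above tumour cells and Ube2c past 1.5-fold below. In T cells Birc5 and Nusap1 were above and Anln and Ccnb1 below. The T cell values of these last genes rest on few UMIs, 1 in UBD and 2 in control for Anln and 5 and 2 for Ccnb1. In osteoclast-like cells no gene was past 1.5-fold against tumour cells in both libraries. Mki67 was at 6.79% in UBD and 2.56% in control osteoclast-like cells, the control value from 5 UMIs, and Cdc20 at 2.55% and 2.56%. Between the libraries no gene's share passed 1.5-fold in mitotic tumour cells. In mitotic macrophages Nusap1 did, at 3.34% in UBD and 1.21% in control, 2.75-fold higher (1.45 to 5.75), from 75 and 11 UMIs. Ccna2, Kif20a and Kif23 were lower. Kif20a rested on 12 UBD and 13 control UMIs, and the interval of the Ccna2 ratio reached 0.998.

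Genes of each class were set beside the call in the same thinned cells. In UBD osteoclast-like cells Mmp9 was at 1020 CPM in mitotic cells and 4965 CPM in the others, 4.87-fold lower in mitotic cells (4.30 to 5.53). Atp6v0d2, a proton pump subunit, was 1.91-fold lower (1.55 to 2.38) and Dcstamp, a cell fusion gene, 2.72-fold lower (1.73 to 4.51) in mitotic UBD cells. In the control library Mmp9 was at 1341 CPM in mitotic and 2573 CPM in other osteoclast-like cells, 1.92-fold lower (1.47 to 2.55), from 59 and 705 UMIs. In control cells Atp6v0d2 had a ratio of 1.14 (0.695 to 1.78) and Dcstamp a ratio of 0.461 (0.121 to 1.25). Of Mmp9, Atp6v0d2 and Dcstamp, Mmp9 alone was lower beyond counting error in both libraries. Apoe was also lower in both, 1.17-fold in mitotic UBD cells (1.05 to 1.31) and 4.14-fold in mitotic control cells (2.94 to 6.01). Ocstamp and Csf1r were 12.1-fold (5.14 to 37.5) and 1.75-fold lower (1.27 to 2.47) in mitotic UBD cells, with control intervals that included 1. C1qa went opposite ways, with ratios of 1.38 (1.19 to 1.59) in UBD and 0.215 (0.106 to 0.391) in control cells. Acp5 and Ctsk are not set out here because they chose the class. Mitotic macrophages had less Apoe, at 5108 CPM in mitotic and 10892 CPM in other UBD cells, and at 4979 CPM in mitotic and 9860 CPM in other control cells. H2-Ab1 was 1.70-fold lower in mitotic UBD macrophages (1.58 to 1.84) and 1.49-fold lower in mitotic control macrophages (1.30 to 1.70). In control macrophages Ly6c2 was at 104 CPM in mitotic and 933 CPM in other cells, 8.96-fold lower (5.79 to 14.7). In UBD macrophages its ratio was 0.460, with an interval that included 1 (0.164 to 1.04), from 6 and 86 UMIs. Csf1r did not differ beyond counting error, with ratios of 0.876 (0.704 to 1.08) in UBD and 1.15 (0.840 to 1.53) in control macrophages. In T cells the killer protease Gzmb was at 1256 CPM in mitotic and 2452 CPM in other UBD cells, but at 4179 CPM in mitotic and 3391 CPM in other control cells.

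Other genes of the cell cycle were taken from 3 lists. Of 38 further mitosis genes, 0 were higher and 2 lower in UBD tumour cells, Dlgap5 and Cdca2, with a median log2 ratio of -0.19, where 7.93% of all genes tested were higher and 19.8% lower. In macrophages 24 of the 38 were higher and 1 lower, where 8.92% of all genes were higher and 18.4% lower, with a median of 0.79. The lower gene was Pttg1, for securin, the inhibitor of the protease separase, at 27.8 CPM in UBD and 82.9 CPM in control macrophages. The 3 of the list with the most UMIs in macrophages were Cks2, at 75.2 CPM in UBD and 82.5 CPM in control, Cks1b, at 96.3 and 52.9 CPM in UBD and control, and Smc4, at 73.0 and 48.0 CPM in UBD and control. Cks2, unlike the other two, was not higher in UBD macrophages.

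Of 30 genes of DNA replication, 0 passed the rule in tumour cells, with a median log2 ratio of -0.05, the value over all genes being -0.06. In macrophages 16 of the 30 were higher and 1 lower, against the same 8.92% and 18.4% of all genes, with a median of 0.65. The clamp gene Pcna was at 84.2 CPM in UBD and 99.6 CPM in control macrophages and was not among the 16, while the helicase gene Mcm3, at 77.0 CPM in UBD and 41.8 CPM in control, and Mcm6, at 72.2 CPM in UBD and 41.6 CPM in control, were. The lower gene was Cdt1, which licenses replication origins, at 19.4 CPM in UBD and 42.8 CPM in control macrophages. Of 23 regulators, 0 were higher and 2 lower in tumour cells, among them Foxm1, the factor named above, at 9.68 CPM in UBD and 15.0 CPM in control. In macrophages 4 of the 23 were higher (Mybl2, Lin9, Cdk4 and Cdkn2c) and 2 lower. The lower calls were no more frequent than among all genes, of which 19.8% were lower in tumour cells and 18.4% in macrophages. The lower genes were Ccnd2 and Cdkn1a, the inhibitor p21, which was at 538 CPM in UBD and 940 CPM in control macrophages. Foxm1 in macrophages was at 6.93 CPM in UBD and 5.34 CPM in control, with an interval of the ratio that included 1 (0.893 to 1.90).

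Cells with at least 5 UMIs of the 30 replication genes and under 5 of the mitosis genes are a second measure of cycling. They made up 10.7% of UBD and 12.3% of control tumour cells, and 7.35% of UBD and 3.69% of control macrophages. Either call held for 37.9% of UBD and 42.9% of control tumour cells and for 20.5% of UBD and 8.89% of control macrophages. The shares called from replication genes were thus lower in UBD tumour cells and higher in UBD macrophages, as the mitotic shares were. Of the tumour cells called mitotic, 28.2% in UBD and 28.6% in control also held at least 5 UMIs of the replication genes. Among mitotic macrophages 33.2% did in UBD and 29.2% in control, and among mitotic T cells 48.9% and 42.9%. The mitotic call thus takes in cells that express replication genes too and is not a count of cells in mitosis alone.

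Among genes outside the 34, those most tied to the call were found by their ratio of CPM in mitotic over other cells, taking the lower ratio of the 2 libraries. In tumour cells, over 5741 genes with at least 50 UMIs in mitotic cells of each library, they were Arhgap19, Kifc1, Prr11, Depdc1a, Kif20b, Neil3, Cdca2, Pimreg, Knstrn and Nek2. Arhgap19, for a regulator of the GTPase RhoA, was 8.87-fold higher in mitotic UBD cells (5.66 to 14.3) and 10.3-fold higher in mitotic control cells (5.30 to 22.0). In macrophages, over 542 genes, they were the histone genes Hist1h2ap and Hist1h2ae, then Pclaf, Stmn1, Tubb4b, H2afv, Tubb5, Hmgb2, Nucks1 and Tuba1b. Hist1h2ap was 16.7-fold higher in mitotic UBD macrophages (13.0 to 21.5) and 16.5-fold higher in mitotic control macrophages (12.9 to 21.1). The macrophage list holds abundant genes because fewer genes reached the UMI minimum there.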

How the data were processed

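The authors deposited, for each library, a matrix of whole-number UMI counts per gene and barcode, not normalised. Cell Ranger and STAR with the mouse build mm10 were used per the submitters' processing notes, and per the file headers the software version was 3.1.0. For annotation, cell calling and strand nothing is stated in the sources used here.

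From these counts, barcodes with at least 500 UMIs, 200 genes and at most 20% mitochondrial UMIs were kept (13619 UBD and 14353 control barcodes). Scrublet in scanpy 1.11.5, with an expected rate of 0.1, then marked 562 UBD (4.13%) and 530 control barcodes (3.69%) as doublets, which were removed. A cell was tumour with at least 3 UMIs and 200 CPM of Cdkn2a, and macrophage likewise with C1qa. T, NK, dendritic and osteoclast-like cells needed at least 1 UMI and 50 CPM of Cd3e, of Ncr1, of Flt3, or of both Acp5 and Ctsk. Cells that met the osteoclast-like and macrophage rules alone (183, doublets included) were called osteoclast-like, and those of other rules together were left out. Because the classes were rebuilt from markers, they can differ from those of the study. UMIs were summed per class and library for CPM, with exact Poisson intervals, and ratios had exact conditional binomial intervals. Mitotic cells had at least 5 UMIs of the 34 genes after each cell was thinned to 2000 UMIs with seed 1, and shallower cells were left out of the shares: in tumour cells 44 UBD and 218 control, in macrophages 135 UBD and 320 control, and in T cells 119 UBD and 65 control. Shares had Clopper-Pearson intervals and their differences Newcombe-Wilson intervals, at 95%. A count of 0 was given the limit of 3 counts. Intervals cover counting error only, and with 1 library a group there was no test.

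Every one of the 34 genes is named with its level in tumour cells and macrophages. In other classes the summed level and the 3 genes of most UMIs are given. Lists are given by their counts, with up to 3 genes of most UMIs and genes past the rule. Genes of other kinds were the 10 with the largest lower ratio of mitotic over other cells among those with at least 50 UMIs. The genes and lists were chosen with earlier results of these data known. Positions came from GENCODE vM21 and promoters from RefSeq. The counting and intervals were tested on simulated data. Alternatives covered the thinning depth, the cut, the filters, the class rules, doublets, scaling and weighting; those on Gm42418, Ly6c2, mixed cells, and Bub3 with Cenpa were added after the data were seen. Python 3.11.15, numpy 2.4.6, scipy 1.17.1, pandas 2.3.3, anndata 0.12.19 and matplotlib 3.10.9 were used.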

Additional observations from a re-analysis of the deposited data

Results flagged for a closer look

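The summed level of the 34 genes differed in opposite directions in tumour cells and macrophages: the log2 ratio of UBD over control was -0.17 in tumour cells and 0.93 in macrophages. With 1 library a group the difference between these ratios was not tested.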

How the results depend on the processing

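Changes in percentage points below are UBD minus control shares of mitotic cells. The tumour difference was -0.34 after thinning to 1000 UMIs, -8.49 at 4000 UMIs, -8.10 with a cut of 3 UMIs, -0.25 with a cut of 10 and -6.82 without cells at 1% or more of Gm42418. In macrophages these settings gave 4.82 at 1000 UMIs, 12.01 at 4000, 5.12 with a cut of 10 and 5.24 without the Gm42418 cells, and 5.66 without cells holding a Ly6c2 UMI. T cells gave 10.6 at 4000 UMIs and -10.6 without the Gm42418 cells, where the direction turned. At 4000 UMIs the difference was 55.0 in NK and 33.4 in dendritic cells, and stricter classes gave 25.0 in dendritic cells. The log2 ratio of the summed tumour level, -0.17, was -0.15 with all cells weighted equally, -0.18 with a stricter cell filter, -0.18 with stricter classes, -0.20 without the Gm42418 cells and -0.19 without Bub3 and Cenpa. In macrophages, 0.93, it was 0.86 with equal weights, 0.62 without the Gm42418 cells, 0.67 without the Ly6c2 cells and 1.06 without Bub3 and Cenpa. In T cells, 0.06, it was 0.22 with equal weights, 0.24 with stricter classes and -0.33 without the Gm42418 cells. Stricter classes gave 0.24 in NK cells in place of -0.10. Dendritic cells, at 1.71, gave 1.30 with equal weights, 2.93 with stricter classes and 2.27 without Bub3 and Cenpa. Osteoclast-like cells, at -0.29, gave -0.036 with equal weights, -0.16 with the stricter filter and -0.56 with stricter classes. The count of genes past the rule was 2 with equal weights in place of 1 in tumour cells, and 17 without the Gm42418 cells and 17 without the Ly6c2 cells in place of 29 in macrophages. The cause was not tested for any of these. Of the other values, 47 share differences, 25 level ratios and 6 counts moved by less than their interval or by less than 1.5 times. Among single genes 406 values stayed within their counting interval and 70 moved. No paired analysis was possible because each group has 1 library. With 1 library a group, differences between tumours, dissections and libraries cannot be told apart from the group, and the NK and dendritic classes hold too few cells for more than a description.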
